A study of Mus musculus with 9 samples.

Results

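Klf2, Klf3, Klf7, Klf12, Klf13, Foxo1, Foxo3, Tsc22d3 and Tob1 are 9 genes of 4 families. Several of them, but not all, are known for holding lymphocytes at rest or for limiting their growth. All 9 were followed in sorted natural killer (NK) cells on Affymetrix mouse arrays. Every probe set that carries 1 of these symbols and no other was a member. That gave 33 of the 45101 probe sets on the array, of which 28 passed a filter on low intensity and were tested and 5 stayed under it. A further probe set, shared between Foxo3 and another gene symbol, was not used. The arrays fall into 3 groups of 3 labelled biological replicates: NK cells from bone marrow of NKDxIL15tg mice (NKDxIL15tg marrow), NK cells from spleen of NKDxIL15tg mice (NKDxIL15tg spleen) and NK cells from spleen of IL15tg mice (IL15tg spleen). The series' text calls NKDxIL15tg cells immature and IL15tg cells mature. All 3 groups carry the transgene for the cytokine IL-15, so no group holds cells at a normal supply of it, and the NKD mice are a transgenic line known for few mature NK cells. Age, the promoter of the transgenes and the number of animals behind a sample are not given in the sources used here. Immaturity and NKD genotype go together in every array, so their effects cannot be told apart.

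Krüppel-like factors (KLFs) are zinc-finger proteins that bind CACCC boxes and related GC-rich sites. Klf2 holds naive T cells at rest and switches on homing receptors, Klf3 and Klf12 recruit the corepressor CtBP, Klf13 is known from lymphocyte survival, and Klf7 from axon growth. FOXO factors are driven out of the nucleus by AKT when growth factor signals run through PI3K, and in resting lymphocytes they switch on Il7r and Klf2. Tsc22d3 encodes GILZ, a protein induced by glucocorticoids and by FOXO3 that dampens inflammatory genes, and Tob1 encodes an antiproliferative protein that brings the CCR4-NOT deadenylase to mRNAs.

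Promoters are shown for the gene that rose (Klf7), for the genes with a probe set that fell between the spleen groups (Klf3 and Klf12) and for Klf2, because KLF genes are themselves known targets of KLF proteins. Each runs from 250 bases before to 50 bases after the gene start (RefSeq, GRCm38.p6), at chr8:72318812-72319111, plus strand, chr5:64803271-64803570, plus strand, chr1:64121340-64121639, minus strand and chr14:100149747-100150046, minus strand, written in the direction of the gene. Capitals mark CACCC boxes, read as CACCC or, on the other strand, GGGTG, and in Klf2 also the 10-letter MEF2 site.
Klf2: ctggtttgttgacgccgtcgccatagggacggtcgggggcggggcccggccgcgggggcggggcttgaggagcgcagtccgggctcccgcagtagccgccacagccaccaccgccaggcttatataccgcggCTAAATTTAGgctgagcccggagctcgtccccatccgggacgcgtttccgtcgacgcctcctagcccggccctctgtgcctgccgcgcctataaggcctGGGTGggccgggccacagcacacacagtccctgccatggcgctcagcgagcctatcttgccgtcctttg
Klf3: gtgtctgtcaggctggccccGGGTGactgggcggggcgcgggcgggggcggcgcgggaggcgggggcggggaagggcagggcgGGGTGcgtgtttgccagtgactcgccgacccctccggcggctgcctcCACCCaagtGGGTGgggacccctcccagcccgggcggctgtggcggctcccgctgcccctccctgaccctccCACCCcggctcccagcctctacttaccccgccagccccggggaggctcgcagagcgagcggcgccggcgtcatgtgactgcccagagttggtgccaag
Klf7: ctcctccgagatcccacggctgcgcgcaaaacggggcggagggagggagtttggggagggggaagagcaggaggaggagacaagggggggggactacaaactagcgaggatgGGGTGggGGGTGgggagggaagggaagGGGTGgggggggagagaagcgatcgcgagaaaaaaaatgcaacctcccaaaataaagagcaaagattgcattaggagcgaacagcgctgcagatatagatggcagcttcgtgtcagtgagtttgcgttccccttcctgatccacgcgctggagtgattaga
Klf12: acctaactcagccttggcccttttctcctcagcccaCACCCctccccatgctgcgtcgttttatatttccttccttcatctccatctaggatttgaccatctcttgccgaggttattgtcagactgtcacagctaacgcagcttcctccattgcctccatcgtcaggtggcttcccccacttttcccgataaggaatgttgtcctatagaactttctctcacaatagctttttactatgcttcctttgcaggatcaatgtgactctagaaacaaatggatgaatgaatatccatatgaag
The Klf3 promoter held 5 CACCC boxes, the Klf7 promoter 3, and those of Klf2 and Klf12 held 1 each. RefSeq listed 11 promoters for the 9 genes, and 8 of them held at least 1 box, against 57.52% of all 32851 mouse promoters of the same length. The median GC content of all promoters was 52.67%, against 69.33% in Klf2, 76.67% in Klf3, 58.33% in Klf7 and 45.67% in Klf12. The MEF2 site in Klf2 began 118 bases before the gene start and was the only one in the 11 promoters, where 3.187% of all promoters held one. The FOXO core GTAAACA was in 0 of the 11 promoters and in 3.65% of all, the cAMP response element TGACGTCA in 0 and in 1.79%, and the glucocorticoid receptor half-site AGAACA in 1, a Tsc22d3 promoter, and in 18.97%. Both strands were searched, and no match counts as a site in use.

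Intensity is the linear brightness that the authors deposited for each probe set. Median intensity was 56.6 to 59.05 on 8 arrays and 64.87 on NKDxIL15tg marrow replicate 3, which stood apart. Its rank correlation with the arrays of its group averaged 0.877, where the others had 0.916 to 0.976. On it 2080 probe sets exceeded every other array by more than 2-fold, and 0 to 6 did so on the others. The log2 ratio of 3' over 5' actin probe sets was 0.93 on it and 1.49 to 2.73 on the others. The same ratio for Gapdh was 2.33 on it, within the range of the other arrays. For Gapdh it was 1.62 to 1.87 in NKDxIL15tg spleen and 1.99 to 3.21 in IL15tg spleen, without overlap. For actin these groups overlapped, at 1.54 to 2.03 and 1.80 to 2.73. In this sign of RNA length both ratios thus ran higher in IL15tg spleen, but only Gapdh separated the groups. The part of this in the results below was not tested. Of 14 NK markers 13 could be read from a single-symbol probe set, and in each group 0 of them lay under the floor of 16. Their summed intensity was 33260 to 35550 in NKDxIL15tg marrow, 38600 to 42060 in NKDxIL15tg spleen and 49980 to 51840 in IL15tg spleen, without overlap and in the order that several of the 9 genes show below. Of the 13, 3 fell and 0 rose between the spleen groups, the receptor genes Klrk1 (-3.09 ± 0.50, log2) and Klrd1 (-2.40 ± 0.46) and the transcription factor gene Tbx21 (-1.29 ± 0.25, lost without IL15tg replicate 1 at an adjusted p of 0.0517), and 4 fell in marrow against IL15tg spleen. With array weights 5 and 7 fell. Granulocyte and monocyte markers moved with the groups: the summed intensity of 17 genes was 12490 to 32570 in NKDxIL15tg marrow, 3808 to 8463 in NKDxIL15tg spleen and 1613 to 1971 in IL15tg spleen. In the same order of groups, erythroid markers summed to 5818 to 7762, 7846 to 8469 and 1997 to 2146, and T cell markers to 2926 to 3742, 3155 to 3576 and 1702 to 1860. Car2 carried most of the erythroid sum, and without it the sums were 942.2 to 1299, 878.4 to 1319 and 636.3 to 668.7. Without Cd28 the T cell sums were 1559 to 2066, 1414 to 2181 and 1315 to 1517, with overlap between the spleen groups. The sums of macrophage and dendritic cell markers ran the other way, at 2034 to 2589, 2998 to 3292 and 5734 to 8542. Of 15 tested genes of that list, 5 fell between the spleen groups (Itgax, H2-Aa, H2-Ab1, H2-Eb1 and Cd74), 0 rose and 10 did not pass. Their median change there was 0.03, against 0.02 over all tested genes. B cell marker sums overlapped (2345 to 4366, 3178 to 4415 and 3129 to 4592), but of 12 tested B cell genes 4 fell and 0 rose between the spleen groups, with Cd79b at -2.07 ± 0.27 and Ms4a1 at -1.61 ± 0.24, and 5 fell (3 without IL15tg replicate 2) and 1 rose (0 without IL15tg replicate 1 or 3) in marrow against IL15tg spleen. Stem, mast cell and basophil markers summed to 571.9 to 729.7, 489.6 to 524.0 and 598.8 to 639.4, lowest in NKDxIL15tg spleen, and 1 of them, Kit, fell by 2.19 ± 0.15 between the spleen groups and by 2.06 ± 0.15 in marrow against IL15tg spleen, where Mcpt8 rose (not with a floor of 64). The part of these cells in the results below was not tested, and fewer cells of a type and less RNA per cell cannot be told apart.

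**Figure D1:**
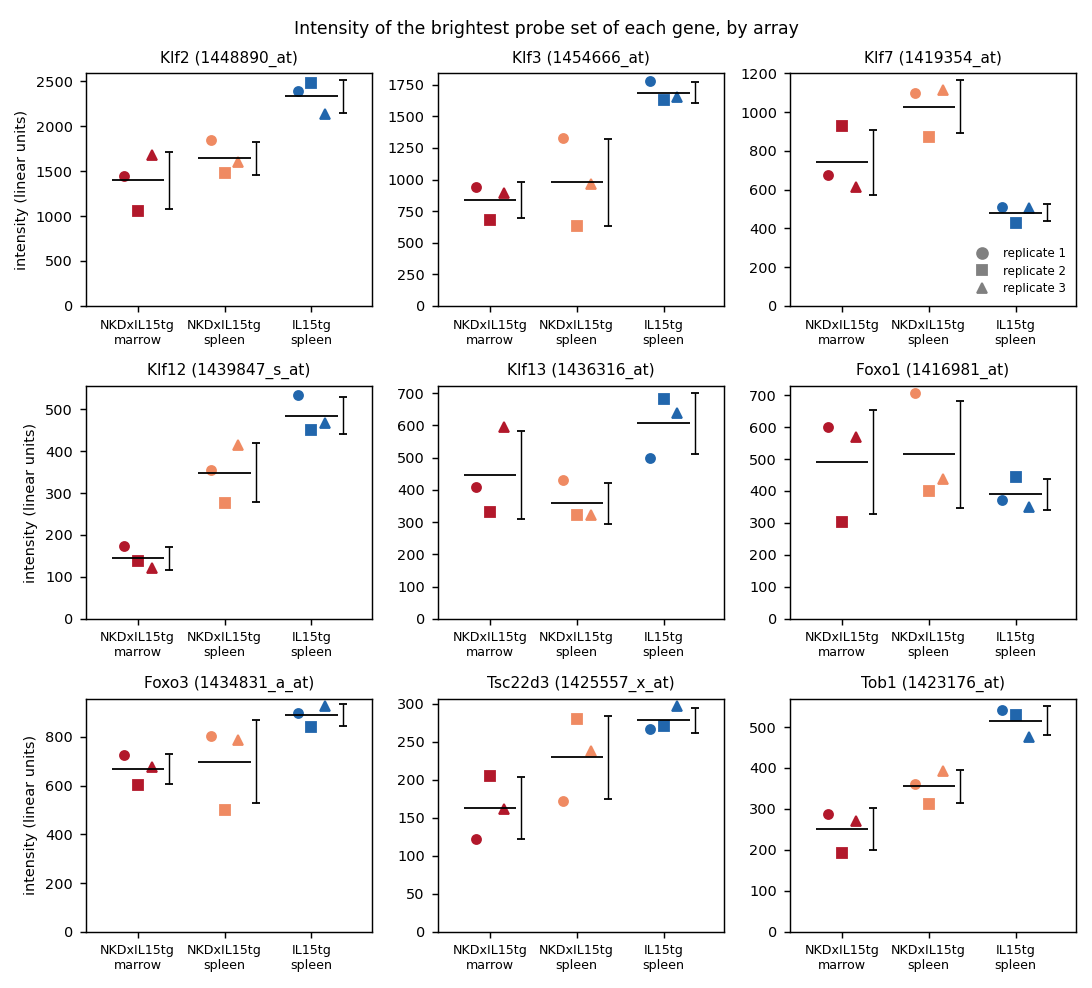
Intensity (linear units, axis from 0) of the brightest probe set of each of the 9 genes on every array. Symbols are replicates 1 to 3, horizontal bars are group means and whiskers are SD (n = 3 arrays). Klf7 is above IL15tg spleen on all NKDxIL15tg arrays, Klf2, Klf3, Klf12, Foxo3 and Tob1 are below it on all of them, and the 3 groups of Foxo1 overlap. The share of all genes that separate in this way was not counted.

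The first comparison set NKDxIL15tg spleen against IL15tg spleen, immature against mature cells of 1 organ. Of 28 tested probe sets of the 9 genes, 6 passed: all 4 of Klf7 rose, and 1 of Klf3 and 1 of Klf12 fell. No probe set of Klf2, Klf13, Foxo1, Foxo3, Tsc22d3 or Tob1 passed. The tested ones of Klf2 and Tob1, the brightest of Foxo3 and the brighter pair of Klf13 were lower on all 3 NKDxIL15tg spleen arrays. Foxo1 1416983_s_at was higher on all 3. The share of all tested probe sets that separate in this way was not counted. Over all 27022 tested probe sets, 13.8% passed in either direction, 6.75% rose and 7.04% fell. The 6 come from 3 genes and are not independent of each other. The median log2 change of the 28 was -0.08, against 0.00 over all tested probe sets. Marrow replicate 3 is not in this comparison but widens the shared estimate of the spread. Without it 10 of 28 passed, against 20.3% of all probe sets: the 4 of Klf7 rose, and 2 of Klf3 and 1 each of Klf2, Klf12, Klf13 and Tob1 fell.

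Klf7 was the only one of the 9 genes with a rise, and its 4 probe sets rose together. The brightest, 1419354_at, read 1098, 869 and 1113 in NKDxIL15tg spleen, against 509, 429 and 504 in IL15tg spleen. The 2 groups did not overlap, and the difference was 1.09 ± 0.17, adjusted p = 0.00437 (limma, Benjamini-Hochberg over all tested probe sets), or 2.13-fold. Here and below, a change is a log2 change ± standard error with n = 3 arrays a group, positive where the group named first is higher. The probe set 1449439_at read 723, 559.8 and 740.0 in NKDxIL15tg spleen, against 353, 327 and 379 in IL15tg spleen, and rose by 0.92 ± 0.14 (adjusted p = 0.00329). The rise was 0.90 ± 0.15 for 1419356_at (adjusted p = 0.00507) and 0.65 ± 0.15 for 1419355_at (adjusted p = 0.0242), the dimmest of the 4. The first 3 passed in all 16 alternative fits. The dimmest lost its call without any 1 of the 3 IL15tg arrays or without NKDxIL15tg spleen replicate 1, with an adjusted p of up to 0.0968.

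Klf2, the factor that keeps lymphocytes small and circulating, has a single probe set of its own. It read 1843, 1477 and 1602 in NKDxIL15tg spleen, against 2388, 2482 and 2130.0 in IL15tg spleen. All NKDxIL15tg spleen arrays were below all IL15tg arrays, with a difference of -0.51 ± 0.17, adjusted p = 0.0878, which did not pass. Without marrow replicate 3 the same difference passed (adjusted p = 0.0322). It passed in 5 of 16 alternative fits and reached an adjusted p of up to 0.255 in the others.

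Klf3, a repressor that competes with other KLFs for CACCC boxes, gave 2 probe sets that moved alike and 3 that did not. The brightest, 1454666_at, read 1328, 636 and 968 in NKDxIL15tg spleen, against 1784, 1628 and 1653 in IL15tg spleen, with replicate 2 of NKDxIL15tg spleen lowest and no overlap between groups. Its difference was -0.85 ± 0.24, adjusted p = 0.0503, just outside the threshold. It passed in 7 of 16 alternative fits, among them the replicate number as a block (adjusted p = 0.0216) and no marrow replicate 3 (adjusted p = 0.0318). In the others its adjusted p was up to 0.153. The probe set 1429360_at read 351, 156 and 207 in NKDxIL15tg spleen, against 561, 490.0 and 499.6 in IL15tg spleen, and fell by 1.20 ± 0.27 (adjusted p = 0.0186), or 2.30-fold. That call was lost without any 1 of the IL15tg arrays or without NKDxIL15tg spleen replicate 2 or 3, at an adjusted p of up to 0.0746. The other 3 tested probe sets of Klf3 differed by -0.20 ± 0.56, -0.11 ± 0.15 and 0.07 ± 0.16, with overlapping groups. Another 2, 1421604_a_at and 1442920_at, ranged from 33.4 to 72.3 and from 27.3 to 46.8 over the 9 arrays and were under the filter.

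Klf12, known as a CtBP-dependent repressor of the AP-2 alpha gene, fell in 1 of 4 tested probe sets. It was 1455521_at, which read 132, 146 and 206 in NKDxIL15tg spleen, against 357, 287 and 329.9 in IL15tg spleen. The groups were far apart, at -1.03 ± 0.18, adjusted p = 0.00683, a 2.04-fold difference that passed in all 16 alternative fits. The brighter 1439847_s_at, at 355, 277 and 416 in NKDxIL15tg spleen, against 534, 451 and 467 in IL15tg spleen, had no overlap either but did not pass (-0.49 ± 0.18, adjusted p = 0.118) and passed in 0 of the 16 alternatives. The dimmer 1439846_at (-0.29 ± 0.15) and 1422227_at (0.15 ± 0.22) had overlapping groups, and 1441040_at stayed under the filter at 22.1 to 27.8.

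Klf13, which switches on the chemokine gene Ccl5 in late T cell activation, was lower in NKDxIL15tg spleen in its brighter pair of probe sets without passing. Its brightest, 1436316_at, read 432, 321 and 323 in NKDxIL15tg spleen, against 500.5, 681 and 640.3 in IL15tg spleen, a difference of -0.76 ± 0.23, adjusted p = 0.0575, and adjusted p = 0.0110 without marrow replicate 3. This difference passed in 6 of 16 alternative fits, and in the others its adjusted p was up to 0.177. The probe set 1432543_a_at read 183, 149 and 133 in NKDxIL15tg spleen, against 239.7, 364 and 188 in IL15tg spleen, with the NKDxIL15tg arrays again all lower (-0.72 ± 0.27, adjusted p = 0.109). The dim 1456030_at, at 47.8 to 71.8 over the 9 arrays, did not follow them (0.02 ± 0.12).

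The FOXO genes did not pass in any probe set. Foxo1, which in NK cells is known to restrain maturation, read 708, 399 and 437 in NKDxIL15tg spleen, against 372, 443 and 351 in IL15tg spleen in its brightest probe set, 1416981_at. The groups overlapped, replicate 1 of NKDxIL15tg spleen was far above the other 5 arrays, and the difference was 0.36 ± 0.29, adjusted p = 0.495. In 1416983_s_at all NKDxIL15tg spleen arrays (587, 364 and 460.2, against 348, 348 and 353 in IL15tg spleen) were higher, at 0.40 ± 0.19, adjusted p = 0.208. Its other 2 probe sets gave 0.06 ± 0.56 and -0.02 ± 0.14. Foxo3, which shares most DNA targets with Foxo1, read 803, 501 and 789 in NKDxIL15tg spleen, against 900.0, 841 and 928 in IL15tg spleen in 1434831_a_at, lower on all 3 NKDxIL15tg arrays but not past the test (-0.38 ± 0.18, adjusted p = 0.212). Its second tested probe set, 1434832_at, was not lower (0.10 ± 0.19), and 1450236_at lay under the filter at 21.2 to 34.95. The largest standard error of the 28, 0.56, was that of Foxo1 1416982_at and of Klf3 1431630_a_at, both with 1 marrow array far above the rest.

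Tsc22d3 did not pass in any of 4 probe sets. The brightest, 1425557_x_at, read 172, 279.7 and 237 in NKDxIL15tg spleen, against 267, 270.3 and 297 in IL15tg spleen, where only replicates 1 and 3 of NKDxIL15tg spleen lay below all IL15tg arrays (-0.30 ± 0.22, adjusted p = 0.433). Replicate 2 of NKDxIL15tg spleen was the highest of its group in 3 of the 4 probe sets. Tob1 read 360.4, 313 and 392 in NKDxIL15tg spleen, against 541, 529.8 and 475 in IL15tg spleen in 1423176_at. The groups of Tob1 did not overlap, and the difference of -0.54 ± 0.17, adjusted p = 0.0630 passed in 4 of 16 alternative fits, among them the one without marrow replicate 3 (adjusted p = 0.0390). The dim second probe set of Tob1 stayed under the filter at 40.9 to 51.2.

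**Figure D2:**
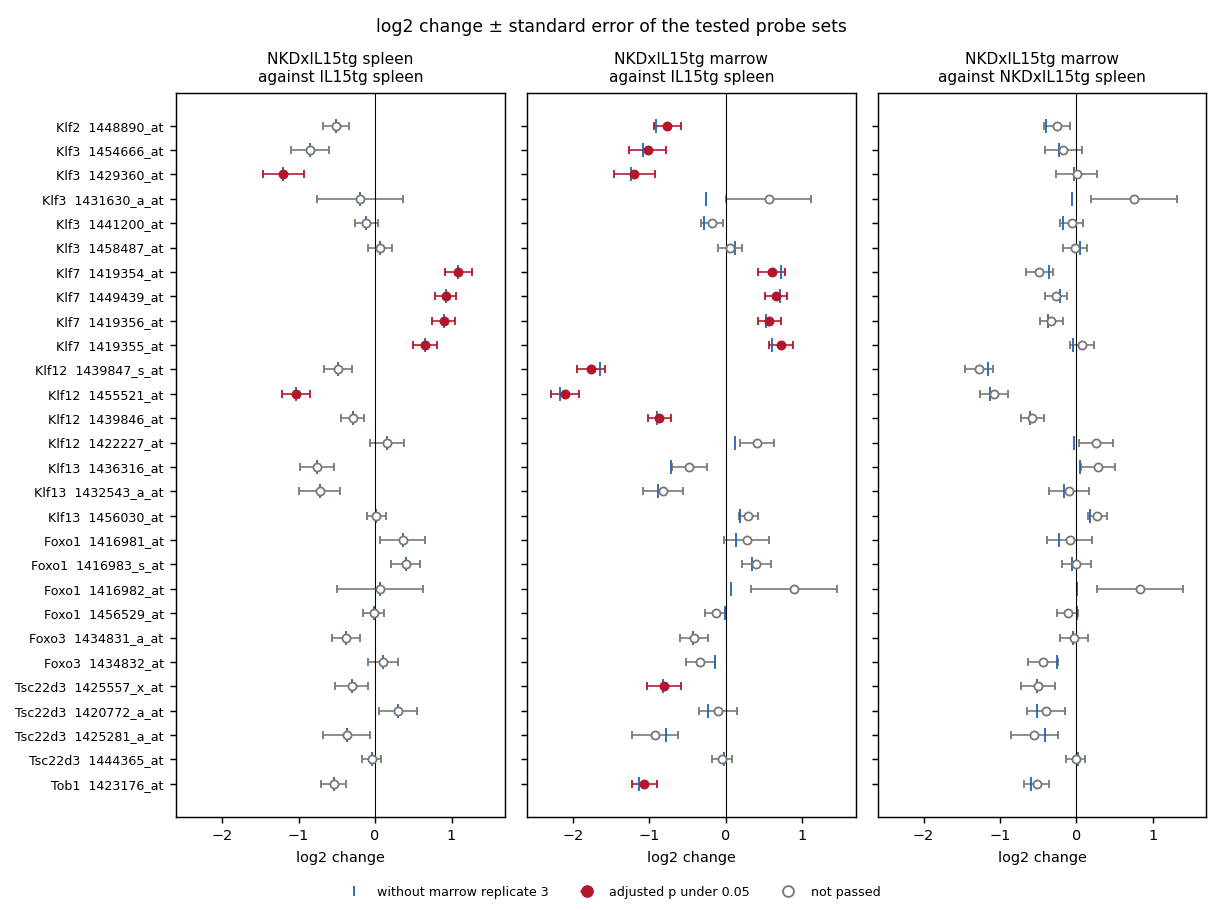
log2 change (x axis) ± standard error of the 28 tested probe sets in the 3 comparisons, from the fit of 9 arrays. Filled red points have an adjusted p under 0.05, open points do not, and blue ticks give the change without NKDxIL15tg marrow replicate 3. All 4 Klf7 probe sets are filled on the right in both comparisons against IL15tg spleen, and no point is filled between marrow and spleen of NKDxIL15tg mice.

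NKDxIL15tg marrow against IL15tg spleen also set immature against mature cells, with a change of organ. It uses the same IL15tg arrays as the spleen comparison, so the 2 sets of values are not independent. Of 28 probe sets 12 passed: the 4 of Klf7 rose, and 3 of Klf12, 2 of Klf3 and 1 each of Klf2, Tsc22d3 and Tob1 fell. Over all tested probe sets 21.3% passed, 9.79% rose and 11.5% fell. The median change of the 28 was -0.15, against 0.08 over all. Without marrow replicate 3, 13 passed, against 23.5% of all, and Klf13 1436316_at was the added one (-0.71, adjusted p = 0.0214, against -0.48 ± 0.23, adjusted p = 0.166 with it). Leaving out IL15tg replicate 1 or 2 left 6 and 7 calls.

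Klf12 had the widest differences of the 9 genes. The probe set 1439847_s_at read 174, 138 and 120.5 in NKDxIL15tg marrow, against 534, 451 and 467 in IL15tg spleen, and fell by 1.76 ± 0.18 (adjusted p = 0.000340), or 3.39-fold. The probe set 1455521_at read 80.3, 64.97 and 81.6 in NKDxIL15tg marrow, against 357, 287 and 329.9 in IL15tg spleen, and fell by 2.10 ± 0.18 (adjusted p = 0.000131), or 4.30-fold. The arrays of each group lay close together beside these distances. The dimmer 1439846_at read 57.5, 47.2 and 55.8 in NKDxIL15tg marrow, against 114, 99.4 and 82.0 in IL15tg spleen, and fell by 0.87 ± 0.15 (adjusted p = 0.00460). All 3 calls held in all 16 alternative fits. The fourth, 1422227_at, did not pass (0.41 ± 0.22, and 0.12 without marrow replicate 3).

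Tob1 1423176_at read 289, 192 and 269.6 in NKDxIL15tg marrow, against 541, 529.8 and 475 in IL15tg spleen, and fell by 1.06 ± 0.17 (adjusted p = 0.00266) in the main fit, a 2.09-fold difference that passed in all 16 alternatives. Klf2 read 1446, 1060.0 and 1682 in NKDxIL15tg marrow, against 2388, 2482 and 2130.0 in IL15tg spleen, all below the IL15tg arrays, and fell by 0.76 ± 0.17 (adjusted p = 0.0148, but 0.0584 without IL15tg replicate 1 and 0.0593 without IL15tg replicate 2). Klf3 fell in 1454666_at by 1.02 ± 0.24 (adjusted p = 0.0184) and in 1429360_at by 1.20 ± 0.27 (adjusted p = 0.0133). The first lost its call without any 1 IL15tg array or marrow replicate 2, at an adjusted p of up to 0.0701, and the second without IL15tg replicate 1 (adjusted p = 0.0573). Levels of 1454666_at were 944, 678 and 896 in NKDxIL15tg marrow, against 1784, 1628 and 1653 in IL15tg spleen, with no overlap. Tsc22d3 fell in 1425557_x_at, at 122, 204 and 161 in NKDxIL15tg marrow, against 267, 270.3 and 297 in IL15tg spleen, by 0.81 ± 0.22 (adjusted p = 0.0305). That call was lost without any 1 IL15tg array or marrow replicate 1 (adjusted p up to 0.0924), with a floor of 64 and with no filter. Its probe set 1425281_a_at, also lower without overlap, was just outside (-0.92 ± 0.30, adjusted p = 0.0597), and 1420772_a_at was not lower beyond its error (-0.10 ± 0.25).

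Klf7 rose in marrow too, by 0.60 ± 0.17 in 1419354_at (adjusted p = 0.0386), which read 677, 929 and 614 in NKDxIL15tg marrow, against 509, 429 and 504 in IL15tg spleen. This was the least stable of its calls and was lost in 13 of 16 alternatives, at an adjusted p of up to 0.142. The rises of 1449439_at (0.66 ± 0.14, adjusted p = 0.0111) and 1419355_at (0.72 ± 0.15, adjusted p = 0.0113) held in all 16, and that of 1419356_at (0.57 ± 0.15, adjusted p = 0.0261) in 11. Klf13 did not pass with all arrays: 1432543_a_at read 176, 108 and 157 in NKDxIL15tg marrow, against 239.7, 364 and 188 in IL15tg spleen, lower on all marrow arrays and just outside the threshold (-0.82 ± 0.27, adjusted p = 0.0558). Foxo1 and Foxo3 did not pass. Foxo1 1416981_at averaged 490.2 ± 164 in NKDxIL15tg marrow and 389 ± 48.2 in IL15tg spleen (SD, n = 3), with overlap. Foxo3 1434831_a_at, at 725, 602 and 678 in NKDxIL15tg marrow, against 900.0, 841 and 928 in IL15tg spleen, was lower on all marrow arrays (-0.42 ± 0.18, adjusted p = 0.136). The mean of Foxo1 1416982_at in marrow rested on replicate 3, which read 1512 where the other 2 read 282 and 262: the change was 0.90 ± 0.56 with it and 0.07 without it. Klf3 1431630_a_at showed the same, at 865 on replicate 3 and 150.4 and 168 on the others (0.56 ± 0.56 with it, -0.25 without it).

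**Figure D3:**
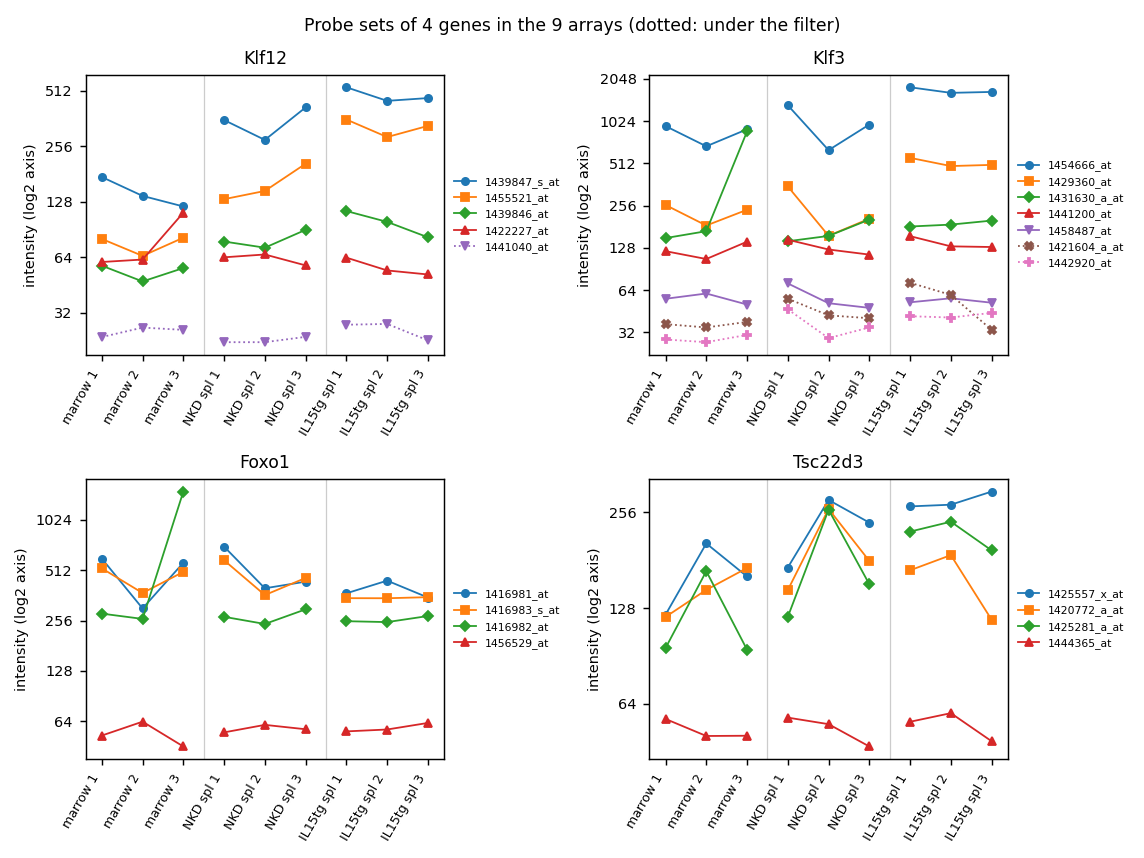
Intensity (log2 axis) of every probe set of Klf12, Klf3, Foxo1 and Tsc22d3 on the 9 arrays, in the order NKDxIL15tg marrow, NKDxIL15tg spleen and IL15tg spleen, with replicates 1 to 3 in each. Dotted lines are probe sets under the filter. Klf12 1439847_s_at, 1455521_at and 1439846_at are lowest in marrow, and the single peaks on marrow replicate 3 belong to Klf3 1431630_a_at, Foxo1 1416982_at and Klf12 1422227_at.

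NKDxIL15tg marrow against NKDxIL15tg spleen compared the organs within 1 genotype. In this limma fit 0 of 28 probe sets passed, where 0.0518% of all tested probe sets passed (0.0111% higher and 0.0407% lower, 14 in all, or 23 with the replicate number as a block) and again 0.0518% without marrow replicate 3. At an unadjusted p under 0.05 there were 6 of the 28, against 10.4% of all tested probe sets. The median change of the 28 was -0.11, against 0.02 over all. The largest measured differences were those of Klf12, whose marrow arrays all lay below all NKDxIL15tg spleen arrays in 3 probe sets. In 1439847_s_at the levels were 174, 138 and 120.5 in NKDxIL15tg marrow, against 355, 277 and 416 in NKDxIL15tg spleen, a difference of -1.27 ± 0.18 (unadjusted p = 6.54e-05, adjusted p = 0.0898, and 0.0502 to 0.462 over the alternatives). In 1455521_at the difference was -1.07 ± 0.18, adjusted p = 0.178, and in 1439846_at -0.58 ± 0.15, adjusted p = 0.356. Tob1 was also lower in marrow without overlap, at 289, 192 and 269.6 in NKDxIL15tg marrow, against 360.4, 313 and 392 in NKDxIL15tg spleen (-0.52 ± 0.17, adjusted p = 0.417). In Tob1 and in Klf12 1439847_s_at the NKDxIL15tg spleen arrays stood between the marrow and the IL15tg arrays, and neither step passed the test. Klf12 1455521_at had the same order without overlap. Of its steps only that between the spleen groups passed (-1.03 ± 0.18, adjusted p = 0.00683). By the brightest probe set, 1.49% of 12925 tested genes had this order without overlap at both steps. The share of all tested probe sets that separate without overlap between marrow and either spleen group was not counted.

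The other genes overlapped between NKDxIL15tg marrow and spleen in their brightest probe sets. The differences there were -0.25 ± 0.17 for Klf2, -0.17 ± 0.24 for Klf3, -0.49 ± 0.17 for Klf7, 0.28 ± 0.23 for Klf13, -0.09 ± 0.29 for Foxo1, -0.03 ± 0.18 for Foxo3 and -0.50 ± 0.22 for Tsc22d3. A dimmer Klf7 probe set, 1419356_at, was lower on all marrow arrays without passing (-0.33 ± 0.15, adjusted p = 0.477). The dim Klf13 probe set 1456030_at was higher on all marrow arrays, also without passing (0.27 ± 0.12, adjusted p = 0.478). Of the markers of other cells, 3 of 16 tested granulocyte and monocyte genes (Ctsg, Prtn3 and Mpo) rose (5 with the replicate number as a block) and 1 B cell gene (Ms4a1) fell in marrow, a call lost with a floor of 64 (adjusted p = 0.285), with no filter or without NKDxIL15tg spleen replicate 1.

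Other members of the KLF family were read in the same way. Of 13 further KLF genes 10 were tested, and between the spleen groups 4 fell, 0 rose and 6 did not pass, with a median change of -0.13 against 0.02 over 12925 tested genes. As background for the counts of every list, 6.75% of all tested probe sets rose and 7.04% fell between the spleen groups. In marrow against IL15tg spleen 9.79% rose and 11.5% fell. The share among genes, each by its brightest probe set, was not counted. A list count near these shares says nothing particular about its list. Klf4, which restrains the division of lymphocytes, averaged 60.4 ± 15.9 in NKDxIL15tg spleen and 189 ± 31.9 in IL15tg spleen (SD, n = 3). Klf9, a glucocorticoid-induced gene, fell by 0.85 ± 0.15, but its other 3 tested probe sets gave -0.04, -0.38 and 0.34. Klf6, an early response gene, fell by 0.80 ± 0.15 (3 further probe sets: -0.78, 0.01 and -0.88). Klf10, induced by TGF-beta, fell by 0.57 ± 0.15, a call lost without any 1 spleen array of either group, at an adjusted p of up to 0.149. The same 4 fell by their brightest probe sets in marrow against IL15tg spleen, with Klf10 at -1.13 ± 0.15 and Klf4 at -1.66 ± 0.22. The probe sets of Klf9 disagreed there. Its brightest fell by 0.91 ± 0.15, but a dimmer one rose by 0.43 and passed (limma, adjusted p = 0.0330). The others of Klf9 gave 0.14 and -0.44 and did not pass. In marrow against NKDxIL15tg spleen 0 of 10 passed.

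Relatives of FOXO, TOB and TSC22 genes gave 2 of 7 that fell between the spleen groups and 0 that rose (4 fell without marrow replicate 3). Tob2, the paralog of Tob1, fell by 0.76 ± 0.17 in its brightest probe set (4 others gave -0.04, -0.30, -0.06 and -0.60), and Tsc22d2 by 0.50 ± 0.11 (-0.51 in its second). Both calls were lost without some of the spleen arrays, at adjusted p up to 0.0861 without IL15tg replicate 2 and 0.0809 without IL15tg replicate 1. In marrow against IL15tg spleen 4 of 7 fell, Tob2 by 1.13 ± 0.17 and Tsc22d2 by 0.81 ± 0.11. The mRNA decay complex that TOB proteins recruit was measured in 14 genes. Of these 0 passed between the spleen groups (limma; 1 fell without marrow replicate 3), and 3 fell and 0 rose in marrow against IL15tg spleen.

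Homing and survival receptors, textbook targets of KLF2 and FOXO1, were tested in 8 of 10 genes, and 2 fell while 0 rose between the spleen groups (4 fell without marrow replicate 3). Il7r, the interleukin 7 receptor that FOXO1 switches on in T cells, read 64.5, 41.5 and 76.0 in NKDxIL15tg spleen, against 529.6, 496 and 467 in IL15tg spleen. S1pr5, the sphingosine phosphate receptor by which NK cells leave marrow and lymph nodes, read 811, 324 and 641 in NKDxIL15tg spleen, against 2313, 2416 and 1981 in IL15tg spleen. Every NKDxIL15tg spleen array was below every IL15tg array in both, with changes of -3.08 ± 0.20 and -2.01 ± 0.32, adjusted p = 0.00412, and in marrow S1pr5 averaged 150.1 ± 37.7 (SD, n = 3), -3.92 ± 0.32 against IL15tg spleen. S1pr1, the classical KLF2 target, did not pass (-0.75 ± 0.45, adjusted p = 0.328, but adjusted p = 0.00148 without marrow replicate 3), and was named after its value was seen. Ccr9 stayed under the filter. In marrow against IL15tg spleen 3 of 8 fell. Among 29 tested FOXO targets in cell cycle arrest, death and metabolism, 2 rose (4 without marrow replicate 3) and 3 fell between the spleen groups. Gadd45a rose by 0.95 ± 0.18 and Ccng1, a p53 target, by 0.70 ± 0.16. Bcl6 fell by 1.52 ± 0.29 and the ubiquitin ligase gene Fbxo32 by 0.53 ± 0.13 (0.27 in its second probe set). Calls were lost without IL15tg replicate 1 for Gadd45a (adjusted p = 0.0508), without IL15tg replicate 3 and others for Ccng1 (up to 0.0783) and, with scaling to a common 75th percentile or without any 1 spleen array, for Fbxo32 (up to 0.149). The list's median change was -0.04, and in marrow against IL15tg spleen 2 rose and 4 fell.

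**Figure D4:**
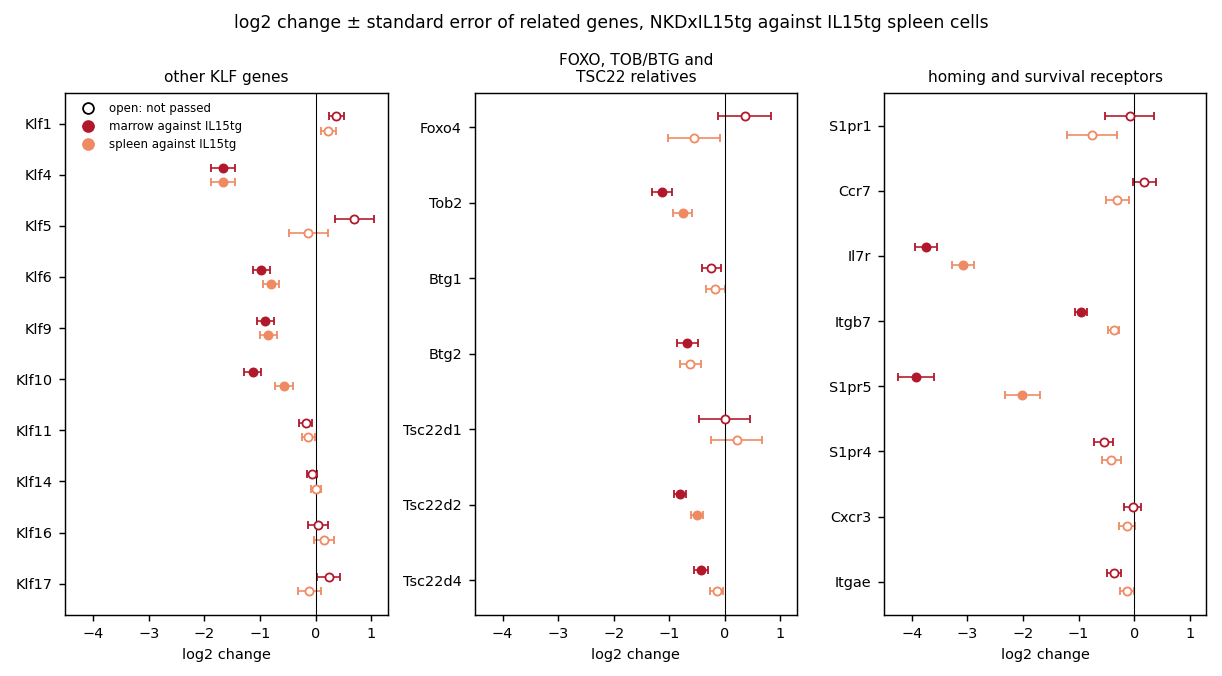
log2 change (x axis) ± standard error of the brightest probe set of each tested gene, for other KLF genes, for FOXO, TOB/BTG and TSC22 relatives and for homing and survival receptors. Red is NKDxIL15tg marrow and orange NKDxIL15tg spleen, both against IL15tg spleen, which the 2 comparisons share. Filled points passed. Every filled point lies left of 0, with Il7r and S1pr5 farthest out.

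Regulators upstream of these factors were read from 3 lists. Of 25 tested genes of the PI3K, AKT and mTOR pathway 2 rose and 3 fell between the spleen groups. The inositol phosphatase gene Inpp4b rose by 2.67 ± 0.24 (365 ± 81.6 in NKDxIL15tg spleen and 57.8 ± 16.7 in IL15tg spleen, SD, n = 3), and the regulatory subunit gene Pik3r3 by 1.47 ± 0.14, where a floor of 64 ended the call (adjusted p = 0.118). Sgk1, a kinase that phosphorylates FOXO3, read 104, 111 and 99.4 in NKDxIL15tg spleen, against 1140.0, 1098 and 829 in IL15tg spleen. Pik3r5 fell by 1.13 ± 0.22, a call lost without IL15tg replicate 2 (adjusted p = 0.0547). In marrow against IL15tg spleen 5 of the 25 rose and 4 fell. Of 20 glucocorticoid response genes, the program to which Tsc22d3 and Klf9 belong, 1 rose (2 without marrow replicate 3) and 4 fell, and in marrow against IL15tg spleen 3 rose and 7 fell. Rhob, a small GTPase gene, fell by 1.33 ± 0.16, and Zfp36, which encodes an mRNA decay factor, by 1.14 ± 0.24 (lost without IL15tg replicate 1 or 2 or NKDxIL15tg spleen replicate 1, adjusted p up to 0.0619).

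Cofactors and activators of KLF genes were tested in 15 genes, of which 2 fell (4 without marrow replicate 3) and 0 rose between the spleen groups and 4 fell and 0 rose in marrow against IL15tg spleen. Mef2c, an activator of Klf2 known from endothelial cells, read 39.9, 41.7 and 42.7 in NKDxIL15tg spleen, against 166, 194 and 217 in IL15tg spleen. Its level in NKDxIL15tg spleen was under the intensity of the filter, and the change was -2.20 ± 0.12, adjusted p = 1.15e-05, with 4 further probe sets at -2.70, -0.92, -1.30 and -1.16. Wwp1, a ubiquitin ligase known to act on KLF2 and KLF5, fell by 0.75 ± 0.11 in its brightest probe set and gave -0.15 and -0.35 in the other 2. Of 19 other genes known for lymphocyte quiescence, 2 rose and 4 fell between the spleen groups, and in marrow against IL15tg spleen 1 rose and 3 fell (7 without marrow replicate 3). The cyclin-dependent kinase inhibitor gene Cdkn2c rose by 1.99 ± 0.15 (1064 ± 238 in NKDxIL15tg spleen and 264 ± 6.46 in IL15tg spleen, SD, n = 3). Foxp1, which keeps naive T cells at rest, fell by 0.80 ± 0.14, with 6 further probe sets between -0.91 and -0.05, and Runx1 fell by 0.74 ± 0.14, with 5 further ones between -0.64 and 0.11. Nfatc2 rose by 0.80 ± 0.19 in its brightest probe set, a call lost without any 1 IL15tg array or NKDxIL15tg spleen replicate 1 or 2 (adjusted p up to 0.0929), and its other 3 gave -0.33, -0.05 and -0.05.

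Genes of cell division and of the early response to stimulation moved on the same arrays. Of 28 tested cell division genes 19 rose and 0 fell between the spleen groups, with a median change of 0.80, and 22 rose and 0 fell in marrow against IL15tg spleen. The cyclin gene Ccna2 rose by 1.82 ± 0.22 between the spleen groups and the kinase gene Cdk1 by 1.59 ± 0.28. Of 22 immediate-early genes 1 rose and 7 fell between the spleen groups (12 fell without marrow replicate 3), and 1 rose and 13 fell in marrow against IL15tg spleen. Fos, an AP-1 subunit gene that also responds to the handling of cells, fell by 2.72 ± 0.48, and Ppp1r15a, a stress response gene, by 1.26 ± 0.17. Klf4, Klf6 and Klf10 are themselves known to respond early to stimulation. The part of handling in their values was not tested.

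The order of the 3 groups was the same for 6 of the 9 genes. The group means of the brightest probe set were lowest in NKDxIL15tg marrow, higher in NKDxIL15tg spleen and highest in IL15tg spleen for Klf2, Klf3, Klf12, Foxo3, Tsc22d3 and Tob1. Neighbouring groups in that order separated on every array at both steps for Klf12 and Tob1 and only at the upper step for Klf2, Klf3 and Foxo3. For Tsc22d3 both steps overlapped. Over all 12925 tested genes, each by its brightest probe set, the group means had this order in 19.4%. With that order the arrays separated at both steps in 1.49% of genes, only at the upper step in 6.54% and only at the lower step in 1.32%, and both steps overlapped in 10.1%. Klf7 followed another order, with IL15tg spleen lowest, NKDxIL15tg marrow next and NKDxIL15tg spleen highest, and Foxo1 had the same order. Klf13 was lowest in NKDxIL15tg spleen, next in NKDxIL15tg marrow and highest in IL15tg spleen. The genes whose log2 intensity was most like that of Klf2 over the 9 arrays were Wdr45b (Pearson r = 0.989), Itgb2 (0.977), Apobr (0.975) and Rassf5 (0.973). For Foxo1 they were Git2 (0.971), Zfp598 (0.970), Efhd2 (0.957) and Ensa (0.949), and for Tsc22d3 Commd7 (0.977), Gzmb (0.969), Taf9b (0.955) and Ube2e1 (0.950). The 9 points share 3 groups and 1 array that stands apart, so these values only describe likeness, and without marrow replicate 3 they ranged from 0.945 to 0.991.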

How the data were processed

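Total RNA of sorted NK cells was extracted with Trizol, and 150 ng per sample were labelled after 2 cycles of amplification from the 3' end, per the labels' protocols. Probe sets distant from that end can lose signal this way. The authors deposited a table of linear intensity, 1 value for each probe set on each array. Summarisation of the probes and scaling of the arrays are not given in the sources used here. The values were used unchanged. Intensities under a floor of 16 (4.35% of values) were set to it, all were taken to log2, and 64 control probe sets were left out. Probe sets with a mean log2 intensity at or above the 40th percentile (5.58, that is 47.7 in linear units) entered the tests, 27022 in all. The platform annotation gave 34945 probe sets 1 symbol, 932 several and 9160 none. Promoters come from RefSeq.

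The main test was limma (version 3.58.1, under R 4.3.3) with lmFit and eBayes on group means over the 9 arrays, which pools the spread of the 3 groups. The 2-sided p-values were adjusted over every tested probe set by the method of Benjamini and Hochberg, and 0.05 was the threshold. The fit was tested on simulated data with independent noise and the same spread on all arrays of a probe set. That test says nothing about an array that stands apart, such as marrow replicate 3. Standard errors of log2 changes had a median of 0.154, and the number of arrays limits the precision. Single genes were not tested by permutation, since 3 against 3 arrays cannot give an exact p below 0.1. Where nothing says that replicates come from separate animals, p-values measure only the spread between these samples.

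The members, the gene lists and the marker lists were chosen with earlier results of these data known. In the lists each gene stands by its brightest probe set, and its p is that of the fit over all probe sets. Named were all probe sets of the 9 genes, up to 4 genes of each list with the largest change past the threshold between the spleen groups and up to 2 between marrow and spleen, and for Klf2, Foxo1 and Tsc22d3 the 4 genes with the highest Pearson r. Alternatives were scaling to a common 75th percentile, quantile normalization, a floor of 64, no filter, the replicate number as a block, array weights, only the 2 groups compared, and each array left out in turn. Deviations from the group means of same-numbered arrays correlated at 0.123 to 0.163 between the spleen groups. They correlated at 0.228 to 0.379 between marrow and spleen of NKDxIL15tg mice and at -0.0236 to 0.242 between marrow and IL15tg spleen. Arrays with different numbers were not compared, so these values cannot decide whether the numbers pair. The labels do not say what a number shares.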

Additional observations from a re-analysis of the deposited data

How the results depend on the processing

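Over 16 alternative fits, 1269 of the members' results kept their side of the threshold, 35 gained a call, 40 lost one and 0 calls reversed. Some changes that did not pass took the other sign. Klf3 1431630_a_at in marrow against IL15tg spleen went from 0.56 to -0.25 without marrow replicate 3. Between the spleen groups, 6 member probe sets passed, and 10 with array weights or with only the 2 groups compared; over all probe sets the count was 3725, and 5685 with array weights, which gave marrow replicate 3 a weight of 0.178. Leaving out 1 array at a time gave 4 to 10 member calls (10 without NKDxIL15tg marrow replicate 3) and 1809 to 5483 in all. Between NKDxIL15tg marrow and spleen 14 probe sets passed, 4 with a floor of 64, 2 with no filter and 1 to 15 with 1 array left out, and 0 of the members in each of these fits. In marrow against IL15tg spleen the 12 member calls became 6 to 14, and the 5764 in all 3089 to 6342, with 1 array left out; the lowest were without IL15tg replicates 1 and 2. With the replicate number as a block, 3789 probe sets (7 members) passed between the spleen groups, 5957 (12 members) between marrow and IL15tg spleen, and 23 (0 members) between marrow and spleen of NKDxIL15tg mice. Under the block in marrow against IL15tg spleen, Klf7 1419354_at was at adjusted p = 0.0647 and Tsc22d3 1425281_a_at at 0.0150. Whether the numbers pair was not tested. The causes were not tested. Fewer arrays leave a wider error, and a dim probe set near the floor gives only a lower limit of its change.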
